A study of Mus musculus with 32 samples.

Results

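The genes described here encode the enzymes that remove superoxide and peroxides, namely Sod1, Sod2, Sod3, Cat, Gpx1, Gpx2, Gpx3, Gpx4, Prdx1 and Prdx6. They were chosen by name, as the probes that carry 1 of these symbols in the annotation of the arrays, and make 10 of the 33253 gene names on the array. Their RNA was measured in whole lungs of newborn C57Bl/6J mice with one-colour Agilent mouse arrays, on which 15 probes of 60 bases carry 1 of the 10 names.

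The study asked what blocking microRNA-34a does in lungs whose alveoli fail to form under high oxygen, a mouse model of bronchopulmonary dysplasia. Pups of both sexes breathed 21% O2 (normoxia) or 85% O2 (hyperoxia) from P1 onward. They received by injection either a scrambled locked nucleic acid oligonucleotide (SCR, the control) or antimiR-34a (A34a), which the sample labels call an antagomiR. Lungs were taken at post-natal day (P)5 or P14, so the 2 ages, 2 oxygen levels and 2 oligonucleotides gave 8 groups of 4 mice and 32 arrays. The oligonucleotide was given to the whole animal, all groups received one, and the nursing dams were exchanged between the oxygen levels each day.

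Superoxide dismutases turn superoxide into hydrogen peroxide. Sod1 does so in the cytosol, Sod2 in mitochondria and Sod3 outside the cell. Catalase, found mainly in peroxisomes, and the glutathione peroxidases and peroxiredoxins then reduce the peroxide. Gpx4 reduces lipid peroxides in membranes, Gpx3 is secreted, Gpx2 is best known from epithelium of the gut, and Prdx6 is abundant in lung epithelium, where it also acts as a phospholipase on surfactant lipids.

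A level is given here as log2 of the processed spot signal minus log2 of the 75th percentile of the same array, so levels of a probe can be compared between arrays but not between probes. All 15 probes were well above background on all 32 arrays. The 10 genes are described on their brightest probe unless another is named. A difference was called at a Benjamini-Hochberg adjusted p below 0.05 in limma, adjusted over all probes tested.

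Each combination of age and oxygen level lay on a slide of its own, and the A34a arrays filled the other row of the same slide. Oxygen, age and slide therefore cannot be told apart, nor can oligonucleotide and slide row, and whether animals of a group shared a litter is not given in the sources used here. In whole lung, fewer cells of a type and less RNA per cell cannot be told apart. Markers of type II pneumocytes (6 of 6 genes, Sftpc among them) were well above background on every array. A few arrays stood apart. Genes of skeletal muscle were at 4.95 in SCR replicate 4 of P5, 21% O2, as the mean log2 level of 6 genes relative to all P5 arrays, against -0.18 to 0.85 in the other mice of that group. Adipocyte genes were at 1.11 in A34a replicate 4 of P14, 85% O2, against -3.87 to -3.19 in the other mice of that group. On the P14, 21% O2 slide, 4 arrays (SCR replicates 1 to 3 and A34a replicate 1) had a 75th percentile of 10.1 to 10.2 on the log2 scale, and the other 4 one of 9.34 to 9.64.

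**Figure D1:**
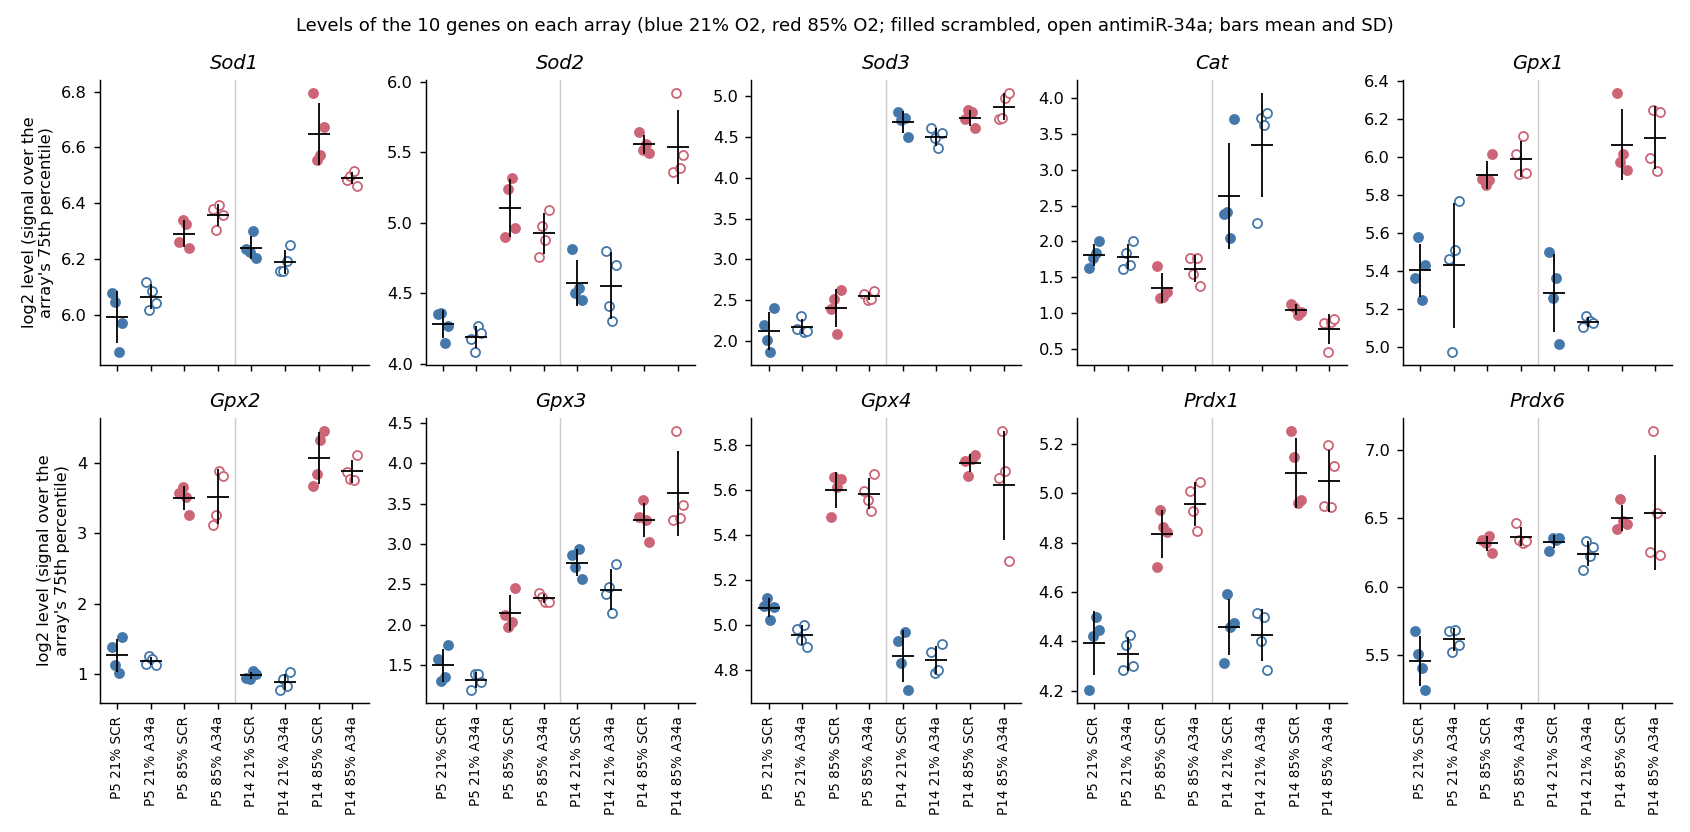
Levels of the 10 genes on their brightest probe, with 1 point per mouse, the group mean and the SD (n = 4); the vertical axis is the log2 signal over the 75th percentile of the array and each panel has its own scale. Gpx2 separates the oxygen levels at both ages, Sod3 separates the ages, and Cat is spread widely at P14 in 21% O2.

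Hyperoxia was accompanied by higher RNA of most of these enzymes. Gpx2 rose most, 4.69-fold at P5 and 8.46-fold at P14 in SCR mice. Sod2, Gpx1, Gpx4, Gpx3, Prdx1 and Sod1 rose by 1.23-fold to 1.97-fold in these mice at both ages, and Prdx6 rose 1.81-fold at P5. Cat was the exception, falling at P14 with either oligonucleotide. For Sod3 the fold changes were 1.22 and 1.04 in SCR and 1.30 and 1.29 in A34a mice at P5 and P14. Its calls at P5 in SCR mice and at P14 in A34a mice depended on the settings, and the oligonucleotides did not differ by a called amount.

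In SCR mice at P5, 8 of the 10 genes were called higher and 1 lower, a median log2 fold change of 0.51. The background was 17.5% of 35984 probes called higher and 26.4% called lower, 43.9% in all, with a median of -0.07. In SCR mice at P14, 7 genes were higher and 1 lower, with a median of 0.58. Of 38458 probes, 28.4% were called higher and 32.4% lower, 60.8% in all, with a median of -0.06. In A34a mice, 9 genes were higher at P5 (background 17.2% higher and 29.5% lower, 46.6% in all), and 8 were higher and 1 lower at P14 (27.8% higher and 37.8% lower, 65.6% in all). The medians over the genes were 0.62 and 0.70, against -0.09 and -0.11 over all probes. These counts describe a list of genes and were not tested as a list.

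**Figure D2:**
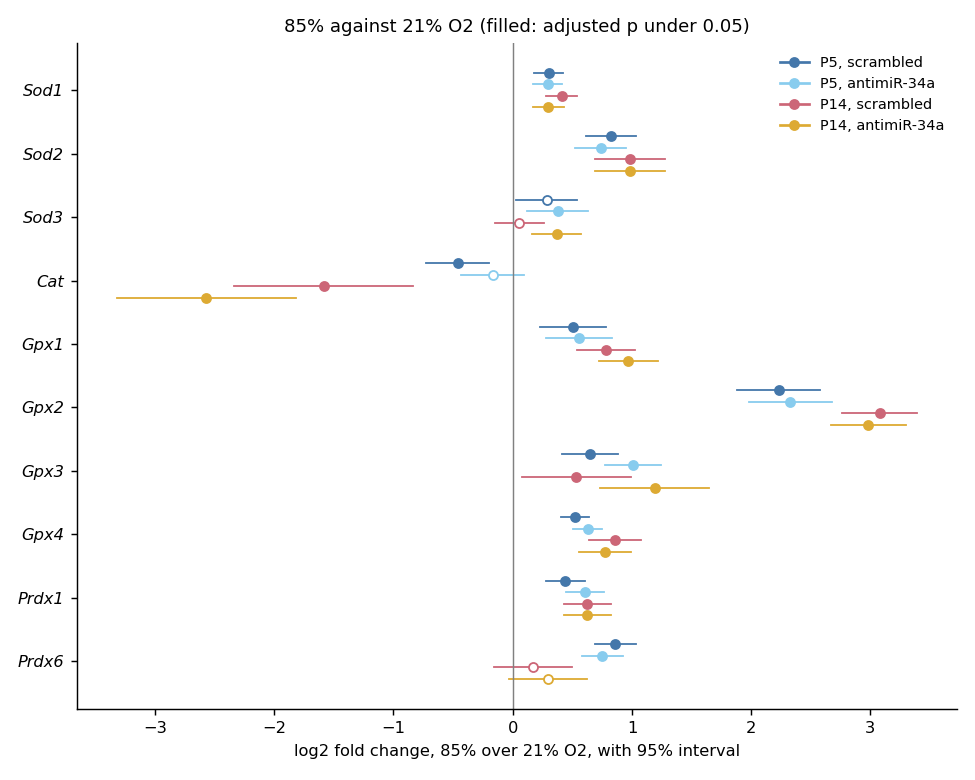
Log2 fold change of each gene in 85% over 21% O2 at P5 and P14 for both oligonucleotides, with the 95% interval of the limma fit; filled points were called at an adjusted p below 0.05. Gpx2 lies at 2.23 to 3.08 and Cat at -2.57 to -0.17, while the other 8 genes lie between 0.05 and 1.19.

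Among the dismutases, mitochondrial Sod2 changed most. Its levels in SCR mice at P5 were 4.36, 4.36, 4.14 and 4.27 in 21% O2 and 4.90, 5.24, 5.32 and 4.96 in 85% O2. At P14 they were 4.81, 4.50, 4.54 and 4.45, against 5.64, 5.52, 5.56 and 5.50. The oxygen groups did not overlap at either age, with log2 fold changes of 0.82 (SE 0.10, limma adjusted p = 1.87e-05) and 0.98 (SE 0.14, adjusted p = 3.51e-05). A34a mice gave 0.74 and 0.98. Cytosolic Sod1 rose less, by 0.29 to 0.41 in the 4 comparisons, with standard errors of 0.06 and adjusted p between 6.32e-05 and 6.77e-04. Its oxygen groups did not overlap in any of them. At P14 the size depended on the normalization. Quantile normalization gave 0.18 in SCR mice, which was still called, and 0.15 in A34a mice, where the call was lost (adjusted p = 0.0607), as it was with the table deposited by the authors (0.15, adjusted p = 0.0602).

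Sod3, the extracellular enzyme, was called for oxygen in A34a but not in SCR mice. At P5 its levels were 2.20, 2.01, 1.87 and 2.41 in 21% O2 and 2.40, 2.52, 2.09 and 2.63 in 85% O2, and at P14 4.80, 4.71, 4.73 and 4.49 against 4.72, 4.83, 4.80 and 4.61. The groups overlapped at both ages. The log2 fold changes were 0.29 (95% interval 0.03 to 0.54, adjusted p = 0.0653) and 0.05 (-0.15 to 0.26, adjusted p = 0.639). Without the array rich in skeletal muscle RNA, the P5 value was 0.38 and was called (adjusted p = 0.0174), as it was without SCR replicate 3 of P5, 85% O2 (0.39, adjusted p = 0.0128) and with normexp background correction (0.32, adjusted p = 0.0373). In A34a mice Sod3 rose by 0.38 at P5 (adjusted p = 0.0179) and by 0.37 at P14 (adjusted p = 0.00372). The oxygen response of A34a mice exceeded that of SCR mice by 0.09 (adjusted p = 0.890) and 0.32 (adjusted p = 0.302), and neither difference was called. The P14 call was lost under quantile normalization, where the value was 0.16 (adjusted p = 0.198), and with the table deposited by the authors (0.16, adjusted p = 0.202).

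Catalase is represented by a pair of probes that did not behave alike. The brighter one, at chr2:103294487-103294546 of mm9 on the minus strand, holds a run of 16 bases in which A and C alternate, a length reached by 0.0629% of the probes on the array. The second has no position in the array annotation. The last 30 bases of each are given, with runs of alternating A and C of at least 8 bases in capitals.
Cat, brighter probe: tacCACACACACACACACAtgcaatacaca
Cat, second probe: gtgcggacattctacacaaaggtgttgaat

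On the brighter probe, Cat in SCR mice at P14 was at 2.38, 2.41, 2.05 and 3.71 in 21% O2 and at 1.12, 1.09, 0.97 and 1.01 in 85% O2. In A34a mice it was at 2.26, 3.72, 3.62 and 3.79 in 21% O2 and at 0.86, 0.46, 0.87 and 0.92 in 85% O2. Every 85% O2 array was lower than every 21% O2 array. The log2 fold changes were -1.59 (SE 0.35, adjusted p = 0.00143) and -2.57 (SE 0.35, adjusted p = 2.44e-05). The 8 arrays in 21% O2 fell into a lower and a higher cluster that cut across the oligonucleotides. The lower cluster, 2.05 to 2.41, held the 4 arrays with the higher 75th percentile, and the higher one, 3.62 to 3.79, the 4 with the lower. The part of signal brightness in this spread was not tested.

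The second probe showed no such clusters. Over the same 8 arrays in 21% O2 it was at -0.75 to -0.53, and in 85% O2 at -1.50 to -1.08. It fell at P14 by 0.58 on the log2 scale in SCR mice (SE 0.09, adjusted p = 1.12e-04) and by 0.74 in A34a mice (SE 0.09, adjusted p = 1.16e-05), so both probes gave a fall and the sizes differed. At P5 they differed in call. The brighter probe fell by 0.46 in SCR mice (SE 0.12, adjusted p = 0.00837), with replicate 1 in 85% O2 inside the range of the 21% O2 mice. The second probe gave 0.06 (adjusted p = 0.512). In A34a mice at P5 neither probe was called, with values of -0.17 and 0.18.

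**Figure D3:**
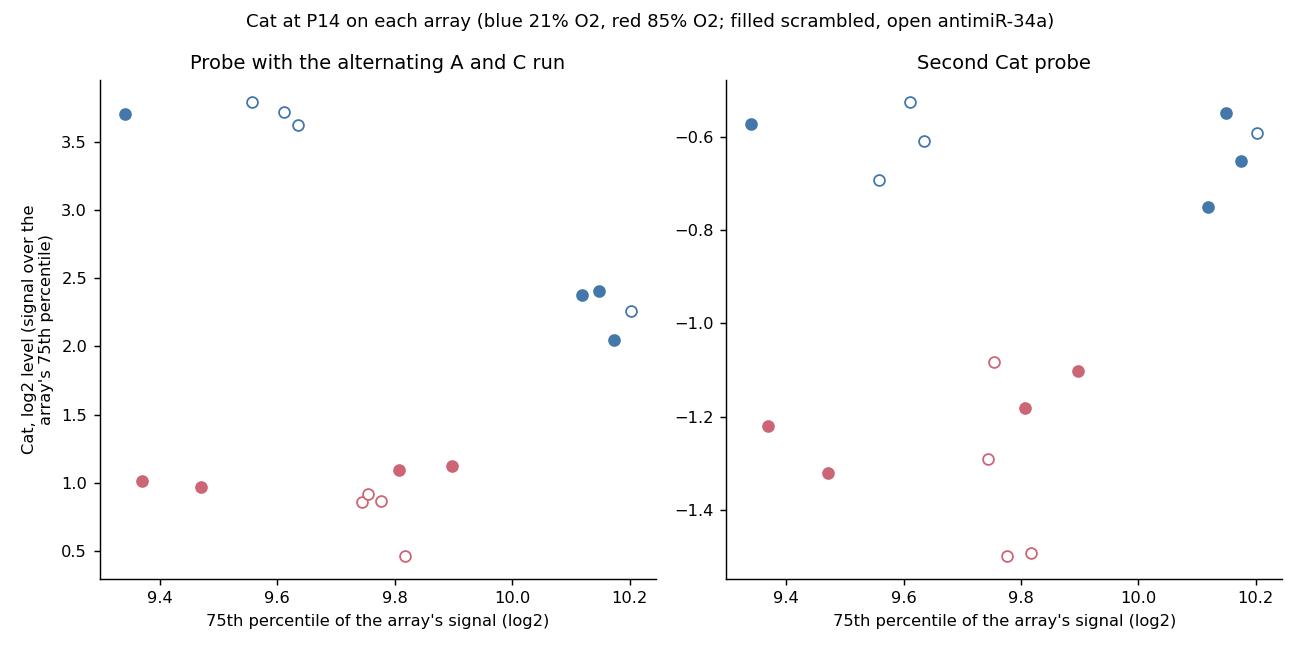
Cat level at P14 on the 16 arrays against the log2 75th percentile of each array's signal, for the brighter probe on the left and the second probe on the right. On the left the 21% O2 arrays lie at 3.62 to 3.79 where the percentile is 9.34 to 9.64 and at 2.05 to 2.41 where it is 10.1 to 10.2; on the right they lie at -0.75 to -0.53 throughout.

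Adipocyte markers (5 of 5 genes on the array) also differed with oxygen at P14. Relative to all P14 arrays, their mean log2 level was 1.78 to 4.67 in SCR and 1.39 to 5.27 in A34a mice in 21% O2, and -4.13 to -3.56 in SCR mice in 85% O2. Of this list, Plin1 was above background on every P14 array. In 85% O2, Car3 was above background on 2 arrays and Cidec on 1. Cfd and Adipoq, both made by fat cells, were above background on all 8 arrays in 21% O2 and on 1 in 85% O2. That array, A34a replicate 4, had an adipocyte level of 1.11 and the highest Cat level of its group on either probe, at 0.92 against 0.46 to 0.87 and at -1.08 against -1.50 to -1.29, but still below every array in 21% O2. At P5 in SCR mice the adipocyte level was -0.94 to -0.58 in 85% O2 and 0.13 to 1.98 in 21% O2, with 3 of the 5 genes above background on all 8 arrays. The part of fat cells in the fall of Cat was not tested.

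Markers of other cells differed with oxygen too, and several lists were divided. Each range here is the mean log2 level of a list over the mice of a group, relative to all arrays of that age, first in 85% and then in 21% O2. Red blood cell genes (6 of 6), from cells rich in catalase, all had lower means in 85% O2 at both ages with either oligonucleotide. Their ranges overlapped, at -1.58 to -0.11 against -0.37 to 1.30 in SCR mice at P14. Skeletal muscle genes (6 of 6) were at -1.06 to -0.67 against 0.53 to 1.52 there, with all 6 lower, and at -1.38 to -0.28 against -0.18 to 4.95 at P5, with 5 lower and 1 higher. Of 4 fibroblast markers, 3 were lower and 1 higher in SCR mice at P14 (-0.54 to -0.42 against 0.34 to 0.42), and all 4 were lower at P5 (-0.36 to -0.20 against 0.24 to 0.32). The 4 smooth muscle markers were all higher in SCR mice at P14 (0.17 to 0.44 against -0.27 to -0.15) and all lower at P5 (-0.23 to -0.05 against -0.00225 to 0.48).

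Endothelial and type II pneumocyte lists did not move as a whole at P14. Of 5 endothelial markers in SCR mice, 3 had a higher and 2 a lower mean in 85% O2. Their score, -0.25 to -0.02 against 0.14 to 0.21, was lower mainly through the receptor gene Tek, at -0.69 against 1.77. Of 6 type II markers, Sftpc (9.48 against 9.26) and Sftpb (7.51 against 7.23), which encode surfactant proteins, were higher and the other 4 lower, with a score of -0.21 to -0.06 against 0.12 to 0.21. At P5 the type II ranges overlapped (-0.11 to 0.04 in both). Of 5 macrophage markers, 3 were higher and 2 lower in each comparison. Their score was at 0.28 to 0.72 against -0.58 to -0.23 in A34a mice at P5, and its ranges overlapped in the other comparisons. Marco, a scavenger receptor, had a mean of 3.81 against 1.97 in SCR mice at P5 and of 4.68 against 2.27 at P14, while Ear2, a ribonuclease, had 2.30 against 4.61 at P14. Tek, Sftpc, Sftpb, Marco and Ear2 were named after their values were seen. The part of these cells in the changes of the enzyme genes was not tested.

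Gpx2 had the clearest response of the glutathione peroxidases and of the whole group of genes. In SCR mice at P5 its levels were 1.39, 1.14, 1.02 and 1.52 in 21% O2 and 3.57, 3.66, 3.50 and 3.25 in 85% O2. At P14 they were 0.95, 0.94, 1.05 and 1.01 against 3.66, 3.84, 4.31 and 4.44. The lowest hyperoxic mouse stood above the highest normoxic mouse by far more than the spread within a group. The log2 fold changes were 2.23 (SE 0.16, adjusted p = 1.96e-07) and 3.08 (SE 0.15, adjusted p = 2.28e-09). A34a mice gave 2.33 (adjusted p = 1.03e-07) and 2.98 (adjusted p = 2.91e-09), fold changes of 5.01 and 7.90. Of 4 type I pneumocyte markers, all had higher means in 85% O2 in SCR mice, with scores of 0.19 to 0.24 against -0.50 to -0.26 at P5 and 0.23 to 0.33 against -0.21 to -0.11 at P14. In A34a mice the P5 scores were also apart (0.22 to 0.45 against -0.25 to -0.14), but those at P14 overlapped (-0.39 to 0.52 against -0.31 to -0.20). The overlap came from A34a replicate 4 in 85% O2, at -0.39 against 0.15 to 0.52 in the other mice of its group. That array also had high adipocyte levels. The part of type I cells in the rise of Gpx2 was not tested.

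Gpx1, the cytosolic enzyme, and Gpx4 rose at both ages with either oligonucleotide. For Gpx1 the log2 fold changes were 0.50 (SE 0.13) at P5 and 0.78 (SE 0.11) at P14 in SCR mice, and 0.56 and 0.97 in A34a mice, with adjusted p between 7.55e-06 and 0.00619. The A34a call at P5 was lost under the methods' t-test (adjusted p = 0.0882). For Gpx4 they were 0.52 (SE 0.06) and 0.86 (SE 0.10) in SCR mice and 0.63 and 0.77 in A34a mice, with adjusted p between 9.57e-07 and 1.74e-05. Neither gene had overlapping oxygen groups.

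Gpx3, the secreted peroxidase, rose less firmly. In SCR mice at P14 its levels were 2.86, 2.71, 2.94 and 2.57 in 21% O2 and 3.34, 3.54, 3.30 and 3.03 in 85% O2. The groups did not overlap, and the log2 fold change was 0.53 (SE 0.21, adjusted p = 0.0435). This call was near the threshold: it was lost without any 1 of 8 of the 16 arrays, where the adjusted p reached 0.112. It was also lost under 5 of 11 other settings, among them quantile normalization (0.39, adjusted p = 0.0922). A34a mice at P14 were at 2.38, 2.47, 2.14 and 2.75 in 21% O2 and at 3.30, 4.40, 3.33 and 3.48 in 85% O2, a rise of 1.19 (adjusted p = 2.47e-04) in which replicate 2 stood above the rest. At P5 Gpx3 rose by 0.65 in SCR mice (adjusted p = 3.41e-04) and by 1.01 in A34a mice (adjusted p = 6.62e-06).

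Prdx1 and Prdx6, the peroxiredoxins, have more than 1 probe each. The last 30 bases of the 6 probes are shown because probes of 1 gene differed in size or call. Positions are those of mm9, where Prdx1 lies on the plus and Prdx6 on the minus strand.
Prdx1, brighter probe, chr4:116371818-116371877: ctaagcagaagtgagcactggaccattttt
Prdx1, second probe, chr4:116372422-116372481: agcatggattaccatagttggccttttgtt
Prdx6, brightest probe, chr1:163171138-163171197: ttcaacaaataaaatcctgatcagaaaacc
Prdx6, second probe, chr1:163171791-163171850: atccagtactggggcctgaggatgtcagct
Prdx6, further probe, chr1:163173715-163173774: acaggcacaaagccggttgccaccccagtt
Prdx6, dimmest probe, chr1:163170713-163170772: ggcctcattagtgtaagctctgagatagtg

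Prdx1 rose on its brighter probe by 0.44 (SE 0.08, adjusted p = 3.29e-04) at P5 and 0.62 (SE 0.09, adjusted p = 5.49e-05) at P14 in SCR mice, and by 0.61 and 0.63 in A34a mice. Its second probe gave 0.17 (adjusted p = 0.0704) and 0.84 (adjusted p = 1.03e-06) in SCR mice. Both probes were higher in hyperoxia, and the SCR call at P5 rested on the brighter one.

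Prdx6 was higher in hyperoxia at P5 on all its probes. The brightest was at 5.68, 5.51, 5.41 and 5.25 in 21% O2 and at 6.34, 6.32, 6.37 and 6.24 in 85% O2 in SCR mice, a log2 fold change of 0.86 (SE 0.08, adjusted p = 1.91e-06). The others gave 1.01, 1.15 and 0.71, all called. At P14 the brightest probe was at 6.26, 6.36, 6.34 and 6.36 against 6.42, 6.64, 6.48 and 6.46. These groups did not overlap either, but the difference, 0.17 (95% interval -0.16 to 0.50, adjusted p = 0.344), was not called, whereas the other probes gave 0.58 (adjusted p = 0.0132), 0.46 (adjusted p = 0.0481) and 1.20 (adjusted p = 9.56e-04). In A34a mice at P14 the brightest probe gave 0.30 (adjusted p = 0.0977) with replicate 2 in 85% O2 at 7.14 and the other 3 mice at 6.23 to 6.54. It was called without replicate 1 (0.39, adjusted p = 0.0411) or replicate 4 (0.40, adjusted p = 0.0341) of the 85% O2 mice, and the other probes were called at 0.64 (adjusted p = 0.00678), 0.62 (adjusted p = 0.0101) and 1.11 (adjusted p = 0.00143). The array also carries a probe named for Prdx6b, a close copy of this gene, and signal shared with it was not tested.

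Since most of these genes rose together, the 250 bases before their transcription starts were searched for the core of the antioxidant response element, TGACNNNGC, which NRF2 binds at many oxidative stress genes. RefSeq windows (GRCm38.p6) were matched for 8 of the 10 genes, as the set of windows used here held no entry for Sod3 and Prdx6. A gene can have several windows, and these 8 genes have 11, of which Gpx4 has 4. On either strand, 2 of the 11 windows held a match, 1 each of Prdx1 and Sod1, where 10.2% of 32851 windows of the same length did. The windows of those genes, of Gpx2 (the largest rise) and of Cat (the fall) are shown 5′ to 3′ on the strand of the gene, with matches in capitals.
Prdx1, chr4:116685349-116685598, plus strand: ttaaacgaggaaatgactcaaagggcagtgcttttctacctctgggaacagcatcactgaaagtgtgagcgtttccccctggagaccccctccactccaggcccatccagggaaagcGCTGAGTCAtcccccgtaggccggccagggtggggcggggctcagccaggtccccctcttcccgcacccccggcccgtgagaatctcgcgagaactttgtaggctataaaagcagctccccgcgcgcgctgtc
Sod1, chr16:90220512-90220761, plus strand: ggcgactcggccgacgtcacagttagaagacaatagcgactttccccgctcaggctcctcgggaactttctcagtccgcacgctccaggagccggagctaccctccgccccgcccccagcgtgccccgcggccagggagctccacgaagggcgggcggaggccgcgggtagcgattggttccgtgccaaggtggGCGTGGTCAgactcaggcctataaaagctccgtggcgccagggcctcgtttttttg
Gpx2, chr12:76795555-76795804, minus strand: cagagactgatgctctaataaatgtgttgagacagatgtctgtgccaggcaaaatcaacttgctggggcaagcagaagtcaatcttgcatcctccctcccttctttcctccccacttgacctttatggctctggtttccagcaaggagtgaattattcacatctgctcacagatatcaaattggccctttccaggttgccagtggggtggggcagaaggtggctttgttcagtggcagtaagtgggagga
Cat, chr2:103485154-103485403, minus strand: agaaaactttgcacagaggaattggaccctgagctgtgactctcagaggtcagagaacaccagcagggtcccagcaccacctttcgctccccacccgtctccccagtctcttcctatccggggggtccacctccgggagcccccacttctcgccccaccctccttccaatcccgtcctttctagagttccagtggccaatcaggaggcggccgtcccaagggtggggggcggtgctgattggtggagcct

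A match describes these letters only, and the absence of one concerns these 250 bases only.

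With age, Sod3 changed far more than with oxygen. In SCR mice in 21% O2 it rose 5.91-fold from P5 to P14, a log2 fold change of 2.56 (SE 0.11, adjusted p = 9.44e-15), from 1.87 to 2.41 in the P5 mice to 4.49 to 4.80 in the P14 mice. Its 4 group means at P14, 4.50 to 4.87, all lay above its 4 means at P5, 2.12 to 2.55. Within an age, neighbouring group means overlapped in range. Gpx3 rose by 1.27 (SE 0.17, adjusted p = 1.44e-06), from 1.31 to 1.75 to 2.57 to 2.94, and Prdx6 by 0.87 (SE 0.12, adjusted p = 2.18e-06). Other Prdx6 probes gave 0.86 (adjusted p = 1.37e-05) and 1.14 (adjusted p = 9.64e-07), but the dimmest gave 0.06 (adjusted p = 0.844) and was not called.

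In all, 6 genes were higher at P14 in 21% O2 and 1 was lower, where 27.8% of 39163 probes were called higher and 23.5% lower (51.4% in all). Cat rose by 0.83 (adjusted p = 0.0130) on its brighter probe, a call that was lost without SCR replicate 4 of P14 (0.47, adjusted p = 0.0992), and by 0.25 (adjusted p = 0.0127) on the second. Sod1 rose by 0.25 (adjusted p = 3.15e-04) and Sod2 by 0.29 (adjusted p = 0.0441), and Gpx4 fell by 0.22 on the log2 scale (adjusted p = 0.0258). The Sod2 and Gpx4 calls were each lost without single arrays, with adjusted p up to 0.166 and 0.108. Gpx2, which had the largest response to oxygen, gave -0.28 (95% interval -0.61 to 0.04, adjusted p = 0.139).

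The response to oxygen at P14 differed from that at P5 for 4 of the 10 genes in SCR mice, 2 in each direction, where 23% of probes were called with a higher and 17.9% with a lower response at P14 (40.8% in all), a share near that of the 10 genes. Gpx2 rose more at P14 (difference in log2 fold change 0.85, SE 0.22, adjusted p = 0.00379), as did Gpx4 (0.34, SE 0.11, adjusted p = 0.0190). The Gpx4 difference was 0.14 under quantile normalization (adjusted p = 0.299) and 0.26 with normexp (adjusted p = 0.0926), and not called with either. Prdx6 on its brightest probe rose less (-0.69, SE 0.17, adjusted p = 0.00269), where the other probes gave -0.70 (adjusted p = 0.0114), -0.43 (adjusted p = 0.0797) and 0.49 (adjusted p = 0.196), and the mean of all its probes -0.33 (adjusted p = 0.192). Cat moved further down (-1.12, SE 0.38, adjusted p = 0.0210), as it did on the second probe (-0.64, SE 0.11, adjusted p = 1.07e-04). Prdx1 gave 0.18 (SE 0.12, adjusted p = 0.214) on its brighter probe, but its second probe rose more at P14 (0.67, SE 0.10, adjusted p = 1.77e-05), and on the mean of both probes the gene was called (0.43, adjusted p = 6.15e-04). On the brighter probe, the Cat difference was -0.77 (adjusted p = 0.0564) without SCR replicate 4 of P14, 21% O2.

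AntimiR-34a was the treatment of interest, and none of the 10 genes was called for it in limma at either age or oxygen level. At P5 the log2 differences between A34a and SCR mice were -0.18 to 0.16 in 21% O2 (background 0.136% of probes called) and -0.18 to 0.27 in 85% O2 (0.0639%). At P14 they were -0.33 to 0.71 (0%) and -0.27 to 0.32 (2.66%). At an unadjusted limma p below 0.05 stood 1 gene at P5 in 21% O2 (Gpx4, -0.12, adjusted p = 0.279), where 6266 of 35984 probes did. At P5 in 85% O2 it was 1 (Cat, 0.27, adjusted p = 0.377), where 4685 of 35984 probes did. There, the second Cat probe gave 0.07 (adjusted p = 0.692) and the second Prdx1 probe 0.26 (unadjusted p = 0.00304, adjusted p = 0.182). At P14 it was 0 in 21% O2, where 4054 of 38458 probes did, and 1 in 85% O2 (Sod1, -0.16, adjusted p = 0.193), where 6414 did. In each comparison the share of the 10 genes was below that of all probes. The methods' t-test after Benjamini-Hochberg adjustment also called 0 in each.

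The intervals show which changes the arrays could have missed. For Sod2 at P14 in 85% O2 the difference was -0.02 (95% interval -0.31 to 0.28), for Gpx2 -0.19 (-0.50 to 0.12) and for Prdx1 -0.03 (-0.23 to 0.16). The brighter Cat probe was far less precise, at 0.71 (-0.04 to 1.46) in 21% O2. There, the array groups overlapped, and the 75th percentile was 10.1 to 10.2 on 3 SCR arrays and 9.56 to 9.64 on 3 A34a arrays. Without SCR replicate 4 and A34a replicate 1, and the pair of arrays rich in muscle or fat RNA, the Cat difference was 1.43 (adjusted p = 2.83e-05). The arrays then left in 21% O2, however, differ in the 75th percentile exactly as in oligonucleotide, and 7176 probes were called. On the second Cat probe, with all arrays kept, the difference in 21% O2 at P14 was 0.03 (95% interval -0.17 to 0.22, adjusted p = 0.955).

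**Figure D4:**
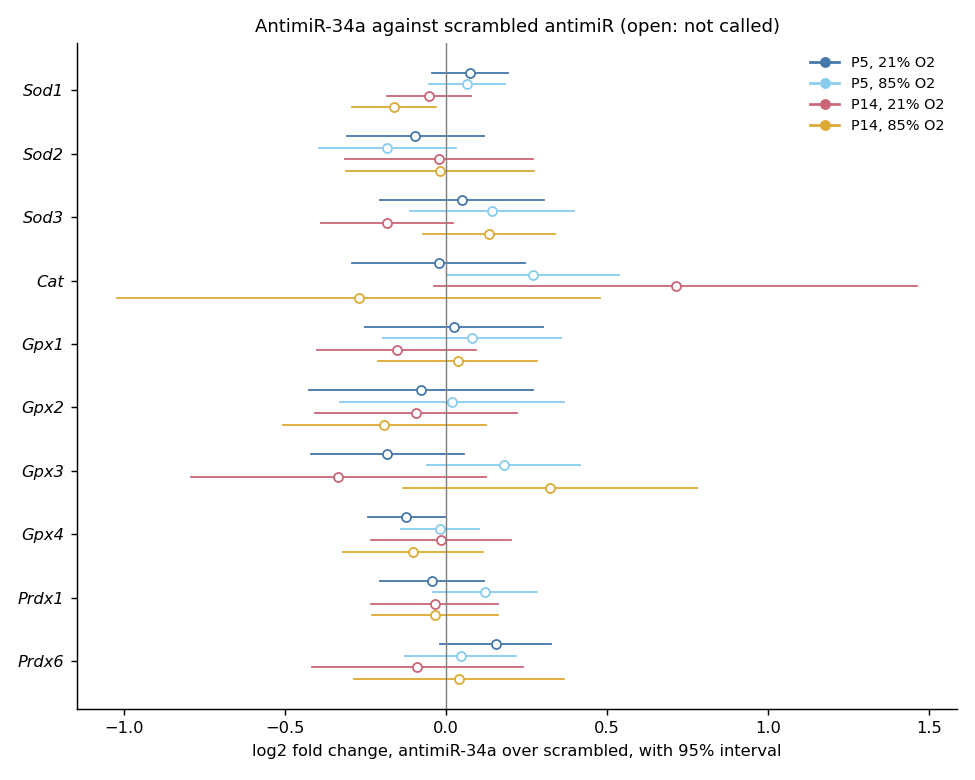
Log2 fold change of each gene in antimiR-34a over scrambled antimiR mice at both ages and oxygen levels, with the 95% interval of the limma fit. All points are open, as no gene was called, and the widest intervals are those of Cat at P14.

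The change in the response to oxygen with antimiR-34a was tested directly, and 0 of the 10 genes were called at P5 (background 0.0556%) or P14 (0.0884%). Gpx3 was below an unadjusted limma p of 0.05 at both ages, with differences of 0.36 (95% interval 0.03 to 0.70, adjusted p = 0.425) and 0.66 (0.01 to 1.30, adjusted p = 0.328). At P14 so was Sod3, at 0.32 (0.03 to 0.60, adjusted p = 0.302). In each case the rise in hyperoxia was larger in A34a mice. Over all probes, 3910 of 35984 were below that p at P5 and 5765 of 38458 at P14, shares near those of the 10 genes. The Gpx3 value at P14 includes A34a replicate 2 in 85% O2, at 4.40 against 3.30 to 3.48 in the rest of its group. Cat gave -0.98 at P14 on its brighter probe (-2.05 to 0.08, adjusted p = 0.359) and -0.16 (adjusted p = 0.566) on the second.

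Over the 32 arrays, the genes whose level followed Gpx2 most closely were Aen, Cdc34 and St14 (Pearson r of 0.985, 0.983 and 0.983), and those that followed Sod3 were Cst3, H2-Ab1 and Adamtsl2 (0.985, 0.978 and 0.978). These arrays share slides by age and oxygen, so the values describe a common order of groups and carry no test.

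Genes that work with these enzymes were counted in the same comparisons in SCR mice. The counts are to be read against all probes tested. Of these, 17.5% were called higher at P5 and 28.4% at P14, 26.4% and 32.4% were called lower, and the medians were -0.07 and -0.06. The lists were described by their counts and medians and were not tested against other genes.

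Glutathione, the reductant of the glutathione peroxidases, depends on cystine uptake and on glutamate-cysteine ligase. Of this list, 6 of 9 tested genes were higher and 1 lower at P5, with a median log2 fold change of 0.39. At P14, 7 of 10 were higher and 0 lower (median 0.70). Slc7a11, the cystine transporter, rose by 3.37 and 4.28 on the log2 scale and Gclc, the catalytic subunit of the ligase, by 1.75 and 1.86. Of the thioredoxin system, which recycles peroxiredoxins, 3 of 7 were higher and 0 lower at P5 (median 0.11). At P14, 4 of them were higher and 2 lower (median 0.59). Srxn1, which repairs overoxidised peroxiredoxins, rose by 1.78 and 2.56, and Txnrd1, a thioredoxin reductase, by 0.78 and 1.48.

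The remaining peroxiredoxins and glutathione peroxidases were divided. At P5, 3 of 6 were higher and 3 lower, with a median of -0.01. At P14 the numbers were 4 and 1 (median 0.30). Gpx7, of the endoplasmic reticulum, fell by 0.65 on the log2 scale at P5, and Prdx5 and mitochondrial Prdx3 rose by 0.98 and 0.65 at P14. Copper delivery genes were higher for 1 of 4 at P5 (median 0.09), a share near that of all probes, and for 3 of 4 at P14 (median 0.24). Atox1 was at 0.37 and Ccs, which loads Sod1 with copper, at 0.30 at P14. Of the genes for selenoprotein synthesis, which Gpx1 to Gpx4 need, 3 of 7 were higher and 0 lower at P5 (median 0.16). At P14, 6 of them were higher and 1 lower (median 0.40), as Sephs2 rose by 0.61 and Sepp1, a selenium carrier, fell by 0.51 on the log2 scale.

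Of 8 peroxisomal genes, 4 were higher and 1 lower at each age, with medians of 0.16 and 0.30. At P14 Pex11a rose by 0.84 and Pex19 by 0.65, and Pex13 fell by 0.35 on the log2 scale. At P5 the lower gene was Pex14, which fell by 0.30. Among sources of superoxide and peroxide, 4 of 9 were higher and 0 lower at P5, with a median of 0.19. At P14, 3 of them were higher and 1 lower, shares near or below those of all probes, and the median was -0.17. Nox1, a catalytic subunit of NADPH oxidase, rose by 0.65 and 0.95 at the 2 ages and Cyba, its membrane partner, by 0.34 and 0.94, while Rac2, a small GTPase of the same complex in blood cells, fell by 0.55 at P14. Pex13, Pex14 and Rac2 were named after their values were seen. Of the NRF2 reference genes, 3 of 4 were higher and 0 lower at each age, with medians of 0.85 and 1.35. Hmox1, which degrades haem, rose by 1.34 and 3.12 and Nqo1, a quinone reductase, by 1.19 and 2.12.

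**Figure D5:**
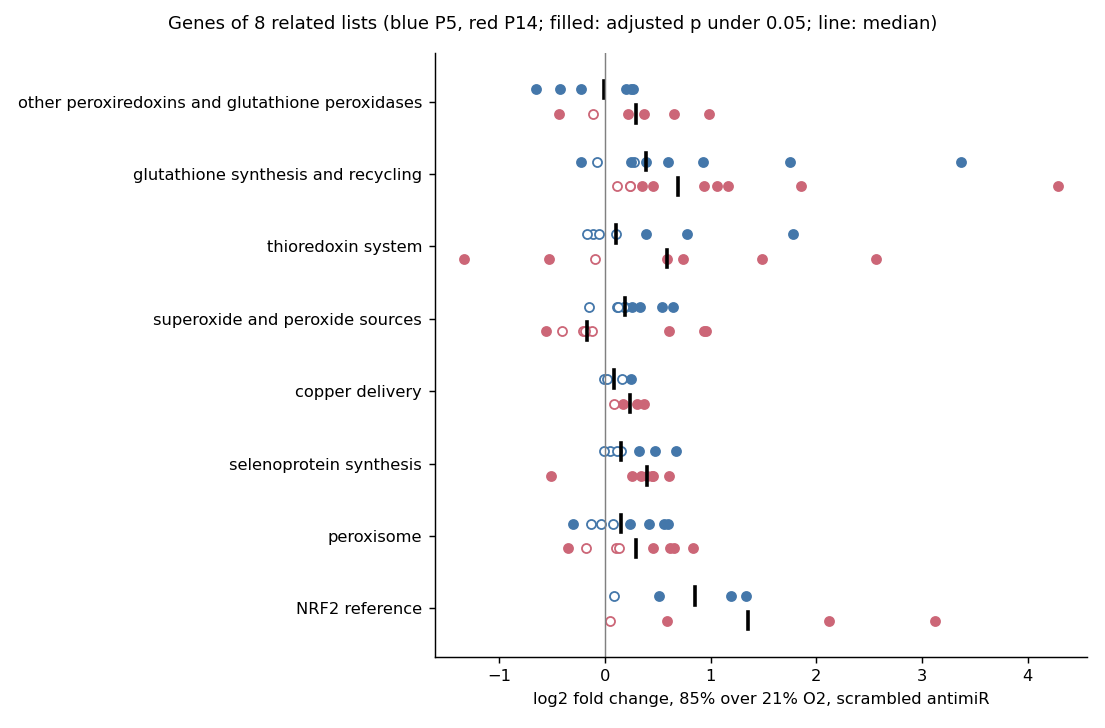
Log2 fold change in 85% over 21% O2 in scrambled antimiR mice for each tested gene of 8 lists related to the enzymes, at P5 and P14; filled points were called and the black line is the median of the list. The glutathione list reaches 4.28 (Slc7a11) and the NRF2 reference genes 3.12 (Hmox1) at P14, while copper delivery stays between -0.01 and 0.37.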

How the data were processed

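RNA of 32 whole mouse lungs was hybridised to one-colour Agilent arrays with 62976 spots and 55681 mouse probes. Per the file headers, the deposited intensity values are processed signals of Agilent Feature Extraction 10.7.3.1. The table of log2 values deposited by the authors was an alternative only. It correlated with the values used here at r of 0.997 or more, and its normalization is not given in the sources used here. Its results were close to those of quantile normalization, so these alternatives are not independent. For oxygen in SCR mice at P5, for example, 14725 and 14739 probes were called.

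Groups came from the sample titles, and whether mice were littermates is not stated, so p-values measure the spread between the mice of a group. Outlier spots (0.211%) were dropped, log2 signals were set against the 75th percentile of all mouse probe spots of the array, and repeated spots were averaged. Probes entered a test where some group had them well above background on each of its 4 arrays. Limma 3.58.1 in R 4.3.3 fitted 1 mean per group, over the 16 arrays of an age or all 32 for comparisons between ages. The number of arrays limits the precision. The code was tested on simulated data.

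All 10 genes are named on their brightest probe. Up to 2 called genes of a list with the largest change are named, and for the 2 genes with the widest range of group means, the 3 genes with the highest r. The genes and lists were chosen with earlier results of these data known. Same-numbered mice were checked for pairing. Alternatives changed background correction, normalization, filter, arrays, test, probes, blocks or the source of the values.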

Additional observations from a re-analysis of the deposited data

Results flagged for a closer look

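In 5 of 80 groups of 4 mice, 1 level lay far from the others, a number close to the 1 in 20 that chance gives. Cat on its brighter probe was at 1.65 in SCR replicate 1 of P5, 85% O2, against 1.22 to 1.29 in the rest of its group. It was at 0.46 in A34a replicate 2 of P14, 85% O2, against 0.86 to 0.92, and at 2.26 in A34a replicate 1 of P14, 21% O2, against 3.62 to 3.79. Gpx3 was at 4.40 in A34a replicate 2 of P14, 85% O2, an array also flagged for Cat, against 3.30 to 3.48. The fibroblast marker score of that array was -0.01, against -0.46 to -0.26 in the rest of its group. Prdx6 was at 6.47 in A34a replicate 1 of P5, 85% O2, against 6.32 to 6.34.

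The response to hyperoxia differed between P14 and P5 in SCR mice for 4 of the 10 genes, where 40.8% of all probes were called. The difference in log2 fold change was 0.85 for Gpx2, 0.34 for Gpx4, -0.69 for Prdx6 and -1.12 for Cat, each called by limma (adjusted p between 0.00269 and 0.0210). The call was lost for Gpx4 under quantile normalization (0.14, adjusted p = 0.299), for Prdx6 on the mean of its probes (-0.33, adjusted p = 0.192) and for Cat without SCR replicate 4 of P14, 21% O2 (-0.77, adjusted p = 0.0564). Each age and oxygen level has a slide of its own, so age cannot be told apart from slide here.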

How the results depend on the processing

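Of the values of single genes that were called, 480 of 502 kept their direction and call under the settings that kept all arrays or left out several together, and 893 of 912 did without 1 array. The others lost the call, and 0 changed direction. A pair of alternatives was chosen after seeing the data: the 75th percentile over probes, and leaving out together the 4 arrays that stood apart. With the latter, 1 gene (Cat, 1.43) was called for antimiR-34a at P14 in 21% O2, against 0 in the main analysis. For the change in the oxygen response at P14 it was 1 (Cat, -1.75, adjusted p = 1.53e-04) against 0. Both values are of the brighter Cat probe. In the main analysis the second Cat probe gave 0.03 (adjusted p = 0.955) and -0.16 (adjusted p = 0.566). Sod3 was also called for age by oxygen (-0.39, adjusted p = 0.0383), where 5 genes were called against 4. The methods' t-test called 4 genes for age against 7, and 8 for oxygen in A34a mice at P5 against 9.

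Without 1 array at a time, the number of genes called for oxygen was 9 to 10 (SCR, P5), 9 to 9 (A34a, P5), 7 to 8 (SCR, P14) and 9 to 10 (A34a, P14). For age it was 5 to 7 and for age by oxygen 3 to 4. For antimiR-34a and for its interaction with oxygen it was 0 to 0 throughout. Quantile normalization moved the median of all probes at P14 in A34a mice from -0.11 to 0.08, and the calls for Sod1 (0.15) and Sod3 (0.16) were lost. At P14 in SCR mice, normexp moved that median from -0.06 to 0.11. With the mean of all probes of a gene, Prdx6 was called at P14 in SCR (0.60) and A34a mice (0.67). Over all probes, the number called for antimiR-34a varied widely between the settings other than single arrays left out: 1 to 396 at P5 in 21% O2 (49 in the main analysis), 0 to 4283 at P5 in 85% O2 (23), 0 to 7176 at P14 in 21% O2 (0) and 0 to 1155 at P14 in 85% O2 (1024). For its interaction with oxygen it was 4 to 32 at P5 (20) and 0 to 6599 at P14 (34).

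The replicate numbers share no stated origin, and the deviations of same-numbered arrays correlated at -0.31 to 0.53, so they were not taken as pairs. With the number as a block, 10 (SCR) and 9 (A34a) genes were called for oxygen at P5, 8 and 9 at P14, 6 for age, 4 for age by oxygen and 0 elsewhere. Slide could not be fitted as a block for oxygen or age, and comparisons of the oligonucleotides already lie within slides. The t-test was not run for interactions.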
